A study of Mus musculus with 12 samples.

Results

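HoxB8 cells that carried both the truncated Asxl1 called Asxl1-MT2 and the CSF3R mutation T618I were compared with HoxB8 cells that carried neither. HoxB8 cells are mouse bone marrow progenitors held immature by a Hoxb8 that works only while estrogen is present. The comparison used 6 of the 12 RNA libraries of the series: the 3 of the group Asxl1-MT2/T618I (pMIG-Asxl1-MT2 with pMICH-CSF3R-T618I) and the 3 of the group Empty/Empty (pMIG-Empty with pMICH-Empty), chosen by their group names. The other 6 libraries, 3 each of the groups Empty/T618I and Asxl1-MT2/Empty, carried 1 construct each and gave the values for single constructs. All groups shared the same progenitor background, RPMI medium with serum and medium conditioned with stem cell factor, and all had been without estrogen for 24 h when RNA was taken. Both constructs were delivered on vectors, so they came on top of the cells' own Asxl1 and Csf3r. The labels name no promoter, clone or separate culture. The p-values therefore speak only of the spread from library to library, and that spread may be technical.

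CSF3R is the receptor for granulocyte colony-stimulating factor. It has no enzyme of its own and works through JAK kinases, which switch on STAT proteins and the ERK pathway, while SOCS proteins shut the signal down. T618I is a change next to the membrane that lets the receptor signal without its ligand. ASXL1 is a chromatin protein that partners the deubiquitinase BAP1, and its truncated forms occur in myeloid neoplasms. As progenitors become neutrophils they make the contents of their granules in waves, first the peroxidase and serine proteases of primary granules, then the proteins of secondary granules, then gelatinase and the receptors of tertiary granules and secretory vesicles, while progenitor genes and cell division shut down.

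The deposited table lists 24411 gene symbols, and 11578 had enough counts to be tested. Totals were 9393686 to 9825685 counts in the Empty/Empty libraries and 10104339 to 10252291 in the Asxl1-MT2/T618I libraries. On the first principal component, with 69.9% of the variance, Asxl1-MT2/T618I lay at 55.2 to 70.9 and Empty/Empty at -48.5 to -46.0. The Asxl1-MT2/T618I libraries were spread along this axis, with library A farthest from Empty/Empty and library C nearest. The title Empty/Empty 3 stands beside a genotype label that names T618I, and its column letter is not given. Each Empty/Empty library in turn was therefore also counted as Empty/T618I. On the first component the Empty/T618I libraries lay at 31.35 to 43, and no Empty/Empty library lay among them. A library so moved thus lay apart from the others of its new group. Levels are CPM, the counts of a gene scaled to a common library size, and changes are log2 fold changes with their standard error (SE). A gene is said to have risen, fallen or been called when its edgeR quasi-likelihood p, adjusted over the 11578 genes by the Benjamini-Hochberg method, was under 0.05.

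The construct genes were looked at first. Asxl1 was at 116, 125 and 117 CPM in Empty/Empty libraries A, B and C and at 1086, 1009 and 919 CPM in Asxl1-MT2/T618I. The 3 libraries with both constructs all lay above the 3 with neither (a difference of 3.07 ± 0.0962; edgeR quasi-likelihood adjusted p = 3.4e-13). Csf3r was at 337, 324 and 232 CPM with neither construct and at 1688, 1334 and 967 CPM with both, again without overlap (2.16 ± 0.172). Whether construct reads were counted to these mouse symbols is not given in the sources used here, so Csf3r counts may hold reads of the construct, of the cells' own gene, or of both. Hoxb8 was at 651, 705 and 626 CPM with neither and at 586, 568 and 559 CPM with both. All 3 were lower with both, but the difference of -0.21 ± 0.101 did not pass (edgeR quasi-likelihood adjusted p = 0.0928). It passed in the same test with only the groups compared (adjusted p = 0.0365) and when library totals alone were used for scaling (adjusted p = 0.00864). It also passed without Empty/T618I library B, a library that enters only through the shared spread (adjusted p = 0.048).

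Progenitor markers were present in all 6 libraries. Mpo, the peroxidase of primary granules, ranged from 9136 to 32814 CPM. Elane, neutrophil elastase, ranged from 766 to 1146 CPM, and Cd34, a surface protein of progenitors, from 93.0 to 240 CPM. Lyz2, which encodes the lysozyme of myeloid cells, was not tested. It had 0, 2 and 65 counts in Empty/Empty libraries A, B and C and 0 in all 3 Asxl1-MT2/T618I libraries. Nearly all its counts in these 6 libraries thus came from 1 library. Among the single-construct libraries Empty/T618I C had 56 counts and the others at most 2.

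About as many genes passed the test as did not. With both constructs 3186 genes rose (27.5% of those tested) and 2674 fell (23.1%), which makes 5860 called genes, or 50.6%. In bulk RNA, more or fewer cells of one kind cannot be told apart from more or less RNA in each cell. Large changes went mostly one way: 1401 genes (12.1%) were at least 2-fold higher and 323 genes (2.79%) at least 2-fold lower. In 3624 genes (31.3%) all 3 libraries with both constructs lay above all 3 with neither, and in 3277 genes (28.3%) all lay below. The excess of rises over falls depended on the scaling. Rises made up 54.4% of the calls with TMM factors and 39.0% (2594 rises and 4051 falls) with library totals alone, which moved the median of all genes from -0.0145 to -0.141.

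**Figure D1:**
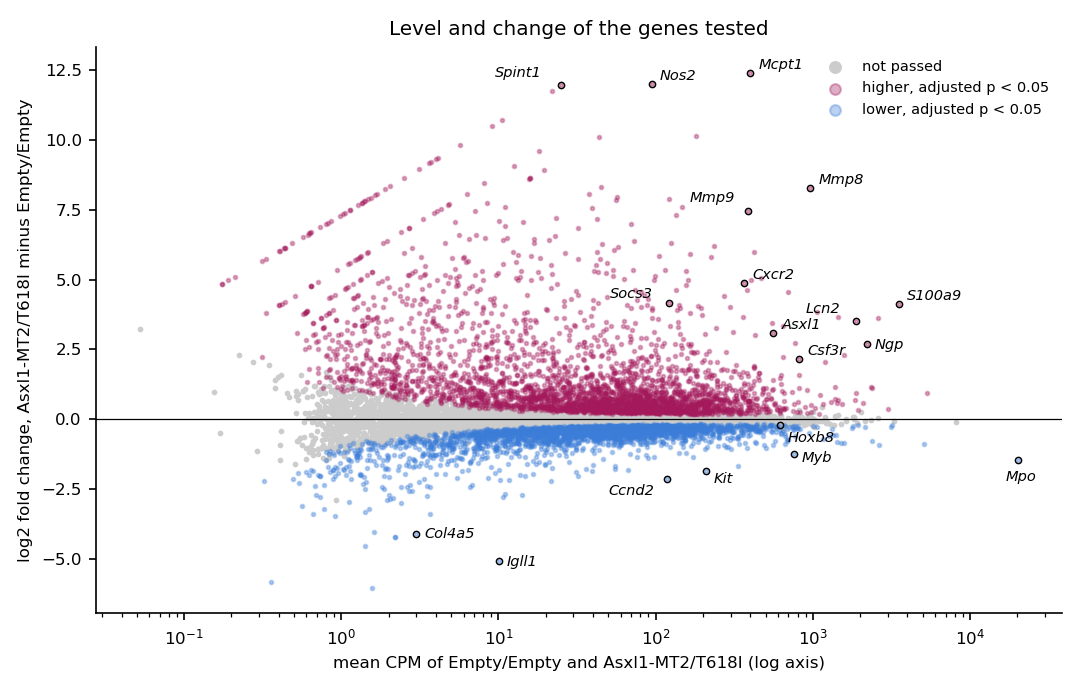
Each point is 1 of the 11578 genes tested, with its mean CPM over the 2 group means on a log axis and its log2 fold change, Asxl1-MT2/T618I minus Empty/Empty. Rises extend further from 0 than falls; the slanted rows at low levels are genes with 0 or a few counts in Empty/Empty, whose fitted change has no fixed size.

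The largest rises were in genes close to silent with neither construct. Nos2, the inducible nitric oxide synthase, had 1 count in the 3 Empty/Empty libraries and 5391 in the 3 Asxl1-MT2/T618I libraries, a ratio of 5580 with an exact 95% interval of 1000 to 220000. Such intervals, and the floor of 3 counts over the group used for genes at 0, cover counting error only, since copies made by PCR are not independent molecules. Nos2 lay at 248, 173 and 144 CPM with both constructs, so its rise is visible in every library. Spint1, an inhibitor of serine proteases at the cell surface, was at 0 in Empty/Empty and at 64.8, 51.5 and 33.9 CPM with both, at least 494-fold higher. Cd38, an NAD-consuming ectoenzyme of many leukocytes, was at least 432-fold higher, and the lipoxygenase Alox8 at least 209-fold. Fcer1a, the IgE receptor chain of mast cells and basophils, was at least 180-fold higher, and the purinergic receptor P2ry12 at least 113-fold. Entpd3, an enzyme that splits extracellular nucleotides, went from 2 to 2505 counts (ratio 1300, interval 358 to 10700). Il7r, the interleukin 7 receptor chain, went from 1 to 1042 counts (ratio 1080, interval 193 to 42600). Mast cell proteases were in this group too: Mcpt1 lay between 0.0994 and 0.201 CPM with neither construct and between 718 and 891 CPM with both, and Mcpt2 between 0.101 and 0.516 and between 320 and 398 CPM.

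Among the largest falls, Igll1, the surrogate immunoglobulin light chain of early B cells, went from 17.7, 18.6 and 22.2 CPM to 0, 0.731 and 0.93 CPM (log2 fold change -5.10 ± 0.34). Col4a5, a basement membrane collagen chain, fell by 4.11 ± 0.367 and the melanocortin receptor Mc5r by 3.39 ± 0.33 on the log2 scale. Matk, a kinase that restrains Src family kinases, went from 16.8, 15.7 and 23.8 to 3.4, 2.3 and 2.38 CPM (-2.80 ± 0.219). The ephrin receptor Epha7 went from 17.4, 20.6 and 19.4 to 2.65, 3.45 and 2.89 CPM (-2.67 ± 0.166). In each of these 5 genes the libraries of the groups did not overlap. Serpinf1, Map9, Pde3b, Dlg2, Cracr2b, Nwd1 and Adgrd1 completed the 12 largest falls, at -2.74 to -2.24.

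By level rather than by fold, the calcium-binding pair S100a9 and S100a8 gained most. S100a9 was at 398, 261 and 486 CPM with neither construct and at 8270, 6319 and 5358 CPM with both (log2 fold change 4.12 ± 0.209). S100a8 went from 505, 334 and 331 to 6070, 4400 and 3844 CPM (3.61 ± 0.228). The libraries of the groups lay far apart for both genes. Actb, the actin of the cytoskeleton, followed with a rise from 3436 to 3843 CPM to 6602 to 7299 CPM, and then the secondary granule genes Ngp and Lcn2. Mpo (chromosome 11, 87793784 to 87804412 in GRCm38.p6) lost most, from 32814, 31625 and 24757 CPM to 9136, 10484 and 12605 CPM (-1.47 ± 0.122), ahead of Calr, the calcium-binding chaperone of the endoplasmic reticulum.

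Signalling below the receptor was read first. Of 36 tested genes of JAK-STAT feedback and targets, 20 rose, 4 fell and 12 did not pass, with a median log2 fold change of 0.54 against -0.01 for all genes tested; 27.5% of all genes rose. Socs3 (chromosome 11, 117966079 to 117970336), the inhibitor that binds the phosphorylated receptor, went from 13.8, 11.9 and 12.4 CPM to 264, 228 and 196 CPM (4.17 ± 0.119; edgeR quasi-likelihood adjusted p = 1.43e-13). The lowest library with both constructs, C, was still far above every library with neither. Cish, a SOCS family inhibitor induced by STAT5, rose by 2.75 ± 0.137, and Socs1 rose by 4.31 ± 0.399 from a level under 0.5 CPM. Il4ra, the interleukin 4 receptor chain, went from 52.3, 54.8 and 52.2 to 784, 648 and 578 CPM (3.66 ± 0.112). Osm, a cytokine that STAT5 induces, rose by 2.72 ± 0.137, and Bcl6, a transcriptional repressor and STAT target, went from 18.7, 15.7 and 16 to 162, 115 and 92.5 CPM (2.87 ± 0.166). Stat3 itself rose by 0.87 ± 0.0794 and the kinase gene Pim1 by 0.51 ± 0.0706. Ccnd2, the cyclin D2 gene, went the other way, from 187, 193 and 199 to 37.4, 40.4 and 54.1 CPM (-2.13 ± 0.138). The number of falls in the list was 2 rather than 4 in 7 of the 12 fits that left out 1 library, among them all 3 without an Empty/Empty library and those without Asxl1-MT2/T618I library A or B; in the last of these Socs2 had an edgeR quasi-likelihood adjusted p of 0.13.

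The promoters of Socs3 and Bcl6 are shown because they are the 2 members of this list with the STAT motif TTCNNNGAA in the 250 bases before the start of a transcript. They are printed 5′ to 3′ on the gene's strand from the RefSeq table of GRCm38.p6, at chr11:117969367-117969616 (minus strand) and chr16:23988853-23989102 (minus strand), with the match in capitals. It begins 154 bases before the start in Socs3 and 118 bases before it in Bcl6. A second start of Bcl6 in the table, with the bases before it at chr16:23981284-23981533, has 3 matches, at 168, 122 and 88 bases before the start, and is not printed.
Socs3: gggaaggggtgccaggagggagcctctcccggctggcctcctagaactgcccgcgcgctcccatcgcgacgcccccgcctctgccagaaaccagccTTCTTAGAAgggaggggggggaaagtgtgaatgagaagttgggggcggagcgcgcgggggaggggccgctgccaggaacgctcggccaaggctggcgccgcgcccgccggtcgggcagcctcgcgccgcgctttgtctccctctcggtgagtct
Bcl6: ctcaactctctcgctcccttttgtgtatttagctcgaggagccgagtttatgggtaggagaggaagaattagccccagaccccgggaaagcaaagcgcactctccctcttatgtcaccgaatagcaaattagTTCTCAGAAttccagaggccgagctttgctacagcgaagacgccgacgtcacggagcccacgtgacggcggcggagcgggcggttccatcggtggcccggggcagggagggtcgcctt
A promoter was found for 28 of the 36 members. The motif, which reads the same on both strands, was in 2 of these 28 over the same bases. Counted in the same way, by gene symbol with a match in any promoter, it was in 8.13% of 27025 symbols. With the 50 bases after the start it was in 3 of 28, Cish being the third, and in 9.55% of symbols. A match is a stretch of letters, and no binding was measured here.

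Genes of ERK signalling and the immediate early response rose as well, 21 of 30 with 2 falls and a median of 1.69. Egr1, a zinc finger factor induced within minutes of ERK activity, went from 3.02, 1.89 and 2.68 to 31.0, 22.9 and 26.5 CPM (3.40 ± 0.286). Zfp36l1, which speeds the decay of AU-rich mRNA, rose by 3.81 ± 0.149, and the antiproliferative Btg2 by 3.26 ± 0.227. Dusp6, the phosphatase that ERK induces to limit itself, was at 30.9, 29.1 and 33.6 CPM against 43.9, 35.5 and 26.6 CPM. Its groups overlapped and it did not pass (edgeR quasi-likelihood adjusted p = 0.351); without Asxl1-MT2/T618I library C it did (adjusted p = 0.0488). Spry1, another brake on ERK, fell from about 3 CPM to 0.531, 0.731 and 0.413 CPM.

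Genes of NF-kB and secreted cytokines rose in 24 of 31 cases with no fall, at a median of 2.18. Cxcl2, a chemoattractant for neutrophils, went from 1 to 276 counts (ratio 286, interval 50.8 to 11300). Il1b, interleukin 1 beta, went from 0.906, 0 and 0.619 to 36.1, 24.9 and 15.6 CPM (5.62 ± 0.442). The chemokine Ccl6 rose by 4.97 ± 0.186, and Csf1, the growth factor of macrophages, went from 12.3, 10.3 and 8.36 to 275, 248 and 251 CPM (4.64 ± 0.157). Tgfb1, the most abundant member, was at 813, 752 and 567 against 682, 720 and 751 CPM and did not pass. Of 27 interferon response genes 20 rose and 1 fell, with a median of 1.15. Ifitm6 went from 7.25, 3.38 and 8.25 to 576, 476 and 338 CPM (6.20 ± 0.225), and Ifitm1 from 206, 194 and 228 to 3149, 2524 and 2326 CPM (3.67 ± 0.132). The antiviral sensors Oas2 and Oas3 and the nucleic acid sensor Zbp1 rose by 4.98, 4.33 and 4.20, each from about 1 CPM. Members of the Ifitm and Oas families are close in sequence, and how the counting divided their reads is not given.

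Transcription factors of granulocytes rose in 20 of 29 cases and fell in 6. Klf2, a Krüppel-like factor of quiescent leukocytes, went from 3.93, 1.99 and 1.86 to 125, 106 and 84.0 CPM (5.33 ± 0.229). Rara, the retinoic acid receptor that promotes granulocyte maturation, went from 2.52, 1.99 and 2.06 to 103, 89.7 and 60.7 CPM (5.26 ± 0.217). In both genes the lowest library with both constructs was far above the highest with neither. Mxd1, a Myc antagonist, rose by 3.25 ± 0.114, Fosl2 by 2.96 ± 0.16, and Cebpb, a C/EBP factor of emergency granulopoiesis, by 1.75 ± 0.152. Cebpa, which commits progenitors to the granulocyte and monocyte lineage, fell by 0.36 ± 0.0977, the repressor Gfi1 fell from 369 to 377 CPM to 165 to 202 CPM (-0.99 ± 0.109), and Myb, which keeps progenitors dividing, from 982, 1147 and 1058 to 365, 467 and 509 CPM (-1.25 ± 0.106). Cebpe, the factor required for secondary granules, was at 250, 244 and 224 CPM with neither construct and at 246, 280 and 275 CPM with both. Its groups overlapped and it did not pass (0.16 ± 0.109; edgeR quasi-likelihood adjusted p = 0.238).

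The granule genes split by granule type. Of 17 tested primary granule genes 9 fell and 3 rose, with a median of -0.36. Mpo fell as above, Ctsg (cathepsin G) from 3122 to 3689 CPM to 1662 to 1912 CPM, and Prtn3 (proteinase 3) from 2816 to 3137 CPM to 1572 to 1922 CPM, all without overlap. Elane was at 1138, 1076 and 1146 CPM against 766, 878 and 1087 CPM and did not pass (-0.30 ± 0.13; edgeR quasi-likelihood adjusted p = 0.0646). Without Asxl1-MT2/T618I library C it did (adjusted p = 0.01 in the same test), and likewise without Empty/T618I library B or C (0.0337 and 0.0346). It also passed with only the groups compared (0.0422) and without a filter on low counts (0.0171). The same held under library totals alone (0.0129) and without the letter C libraries (0.00252). Ctsc, the protease that activates the others, rose from 84.8, 90.2 and 96.3 to 254, 229 and 208 CPM (1.35 ± 0.111). Summed over the list, primary granule genes took 39200 to 48700 CPM with neither construct and 19300 to 24200 CPM with both.

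Of 24 tested secondary granule genes 21 rose and 2 fell, with a median of 2.21. Mmp8 (chromosome 9, 7558429 to 7568486), the neutrophil collagenase, was at 8.05, 4.08 and 6.4 CPM with neither construct and at 2536, 1900 and 1322 CPM with both (8.28 ± 0.264; edgeR quasi-likelihood adjusted p = 3.98e-13). The groups lay more than 2 orders of magnitude apart. Ltf, lactoferrin, went from 119, 41.0 and 115 to 1050, 949 and 1007 CPM (3.45 ± 0.292), and Lcn2, which binds bacterial iron carriers, from 359, 260 and 297 to 3990, 3423 and 2967 CPM (3.50 ± 0.15). Ngp, a cathelicidin-like granule protein, went from 821, 402 and 562 to 3554, 3860 and 3981 CPM (2.67 ± 0.239). Cd177, a surface protein of neutrophil subsets, rose by 5.00 ± 0.232, Ceacam10 by 5.94 ± 0.312 and Olfm4 by 3.97 ± 0.262. Camp, the cathelicidin, rose less, from 18.0, 9.94 and 22.2 to 22.7, 28.2 and 33.3 CPM (0.75 ± 0.255; edgeR quasi-likelihood adjusted p = 0.0215), and by DESeq2 it did not pass (adjusted p = 0.0798). Nor did it pass by edgeR with Empty/Empty B or Asxl1-MT2/T618I C left out (quasi-likelihood adjusted p = 0.112 and 0.08). Fcnb, ficolin B, fell from 119, 118 and 117 to 47.0, 66.0 and 86.8 CPM (-0.82 ± 0.223), a call that DESeq2 did not make (adjusted p = 0.0628).

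The promoters of Ltf and Mmp8 are shown as 2 secondary granule genes that rose and that hold the C/EBP motif TTGCNNAA, on either strand, in the 250 bases before the start. They lie at chr9:111019042-111019291 and chr9:7558179-7558428 on the plus strand of GRCm38.p6, from the same RefSeq table, with the match in capitals. The match begins 75 bases before the start in Ltf, where it stands on the opposite strand, and 19 bases before it in Mmp8.
Ltf: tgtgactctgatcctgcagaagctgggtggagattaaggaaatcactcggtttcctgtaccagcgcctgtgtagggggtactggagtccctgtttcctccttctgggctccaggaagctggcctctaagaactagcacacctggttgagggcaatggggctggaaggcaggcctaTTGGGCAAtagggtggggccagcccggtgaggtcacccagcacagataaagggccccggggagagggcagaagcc
Mmp8: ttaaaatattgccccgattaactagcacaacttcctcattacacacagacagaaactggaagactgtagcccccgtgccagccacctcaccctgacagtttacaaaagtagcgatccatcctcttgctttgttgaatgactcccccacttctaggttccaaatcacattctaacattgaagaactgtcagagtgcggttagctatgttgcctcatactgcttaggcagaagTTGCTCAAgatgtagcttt
The motif was in 6 of the 22 members with a promoter (Ltf, Ngp, Lcn2, Mmp8, Fcnb and Anxa1). Over the same bases it was in 10.8% of all 27025 symbols with a promoter. Fcnb, which fell, holds it too.

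Tertiary granule and secretory vesicle genes rose in 16 of 18 cases with no fall and the highest median of the 36 lists, 3.54. Mmp9, gelatinase B, went from 5.34, 2.29 and 5.36 to 1015, 750 and 529 CPM (7.46 ± 0.29). Fpr1, the receptor for formylated bacterial peptides, went from 0.302, 0.199 and 0.31 to 114, 88.9 and 67.0 CPM (8.32 ± 0.298). Slc11a1, a metal transporter of phagosomes, rose by 6.55 ± 0.325. Itgam, the CD11b integrin chain that marks myeloid maturation, went from 212, 219 and 246 to 1200, 1064 and 927 CPM (2.24 ± 0.122). Alpl and Mme, both surface enzymes of late neutrophils, were too low to be tested.

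Cytosolic neutrophil proteins followed the same direction, with 17 rises and 1 fall among 18 and a median of 3.16. Retnlg, resistin-like gamma, went from 2.62, 0.497 and 1.96 to 350, 266 and 193 CPM (7.31 ± 0.287). Stefin A genes, which encode cysteine protease inhibitors, rose by 5.04 (Stfa2l1) to 5.99 (Stfa2). Stfa2 went from 16.2, 5.96 and 17.2 to 1082, 791 and 635 CPM, though reads of stefin genes may be divided among near-identical copies. Padi4, the enzyme that citrullinates histones in neutrophil traps, rose by 3.97 ± 0.212.

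All 25 tested genes of the NADPH oxidase and of phagocyte receptors rose, with a median of 1.6. Cybb, the membrane-bound catalytic subunit, had the largest change of the oxidase, from 24.2, 19.6 and 26.1 to 390, 338 and 362 CPM (3.96 ± 0.139). Its partner Cyba and the cytosolic subunits Ncf1 and Ncf4 rose by 0.96 to 1.11, and the GTPase Rac2 by 0.69 ± 0.104. With neither construct Cybb was the lowest of these subunits. Pirb and Lilr4b, inhibitory receptors, rose by 5.81 and 5.32, within families whose members are alike in sequence.

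Receptors for chemoattractants and cytokines rose in 23 of 26 cases, with a median of 1.88 and no fall. The list holds the construct gene Csf3r. In a fit without Asxl1 and Csf3r 22 of 25 rose, with a median of 1.61. Cxcr2 (chromosome 1, 74153994 to 74161246), which releases neutrophils from marrow, went from 28.2, 23.8 and 20.4 to 886, 690 and 531 CPM (4.86 ± 0.184). C5ar1, the receptor for complement C5a, rose by 5.02 ± 0.199, and Il1r2, a decoy receptor for interleukin 1, by 4.46 ± 0.146. Csf2rb, the shared chain of the GM-CSF, interleukin 3 and interleukin 5 receptors, went from 542, 563 and 499 to 2769, 2616 and 2496 CPM (2.30 ± 0.0818). Its mouse paralog Csf2rb2 went from 58.3, 57.0 and 55.2 to 1338, 1339 and 1302 CPM (4.54 ± 0.124). How the counting divided reads between these paralogs is not given. Cxcr4, which holds cells in the marrow, lay between 170 and 206 CPM in all 6 libraries and did not pass.

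**Figure D2:**
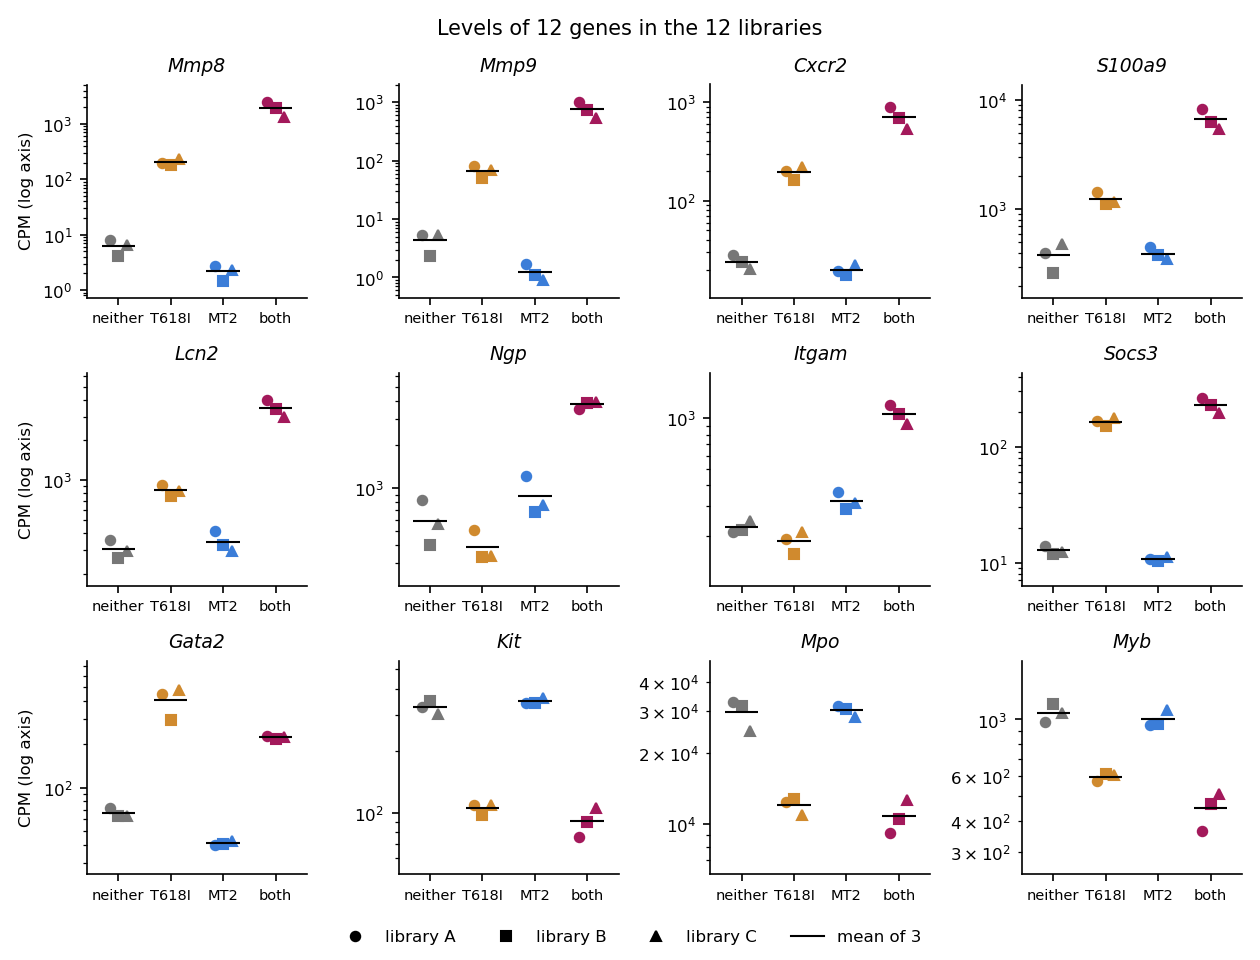
CPM of 12 genes on log axes in the 12 libraries, by group (neither = Empty/Empty, T618I = Empty/T618I, MT2 = Asxl1-MT2/Empty, both = Asxl1-MT2/T618I), with a symbol for each library letter and a bar for the mean of 3. Mmp8, Mmp9, Cxcr2, S100a9, Lcn2, Ngp and Itgam were highest with both constructs, Myb was lowest with both, Kit and Mpo lay near T618I alone, and Gata2 highest with T618I alone.

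The 3 libraries with both constructs were not alike in these genes. Of the 3186 genes that rose, 2279 were highest in library A and 2217 lowest in library C, against 4606 highest in A and 4387 lowest in C among all 11578. The median ratio of A to C was 1.18 over the genes that rose and 1.01 over all genes. It was 1.66 over the 16 risen tertiary granule genes, 1.47 over the 17 risen cytosolic neutrophil genes, 1.49 over the 15 risen monocyte and macrophage genes and 0.953 over the 25 risen mast cell and basophil genes. Of the 2674 genes that fell, 1646 were lowest in library A. Csf3r and Asxl1 were also highest in A and lowest in C, with values given above, and their part in this order was not tested. Without library A 4919 genes were called, without B 5148 and without C 5687, against 5860 with all 3.

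**Figure D3:**
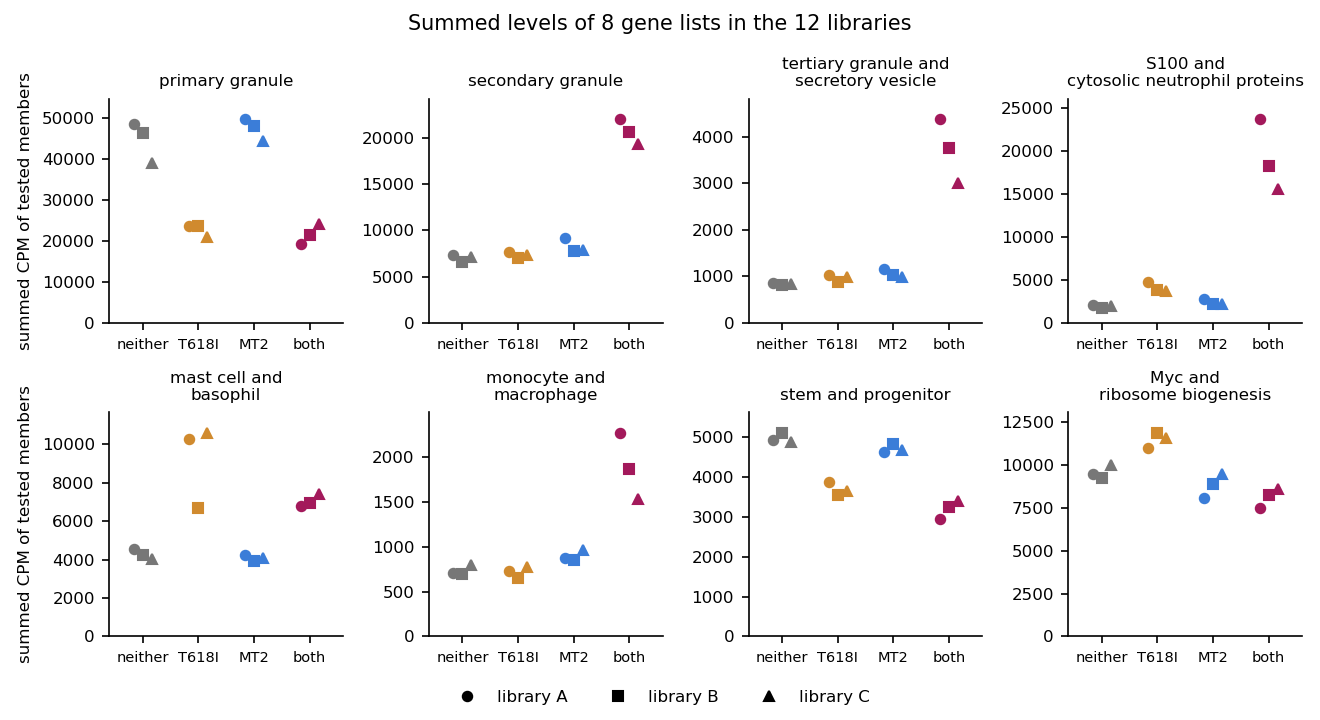
Summed CPM of the tested members of 8 gene lists in each library, on axes that start at 0, with group names as in the plot of 12 genes. Secondary and tertiary granule and cytosolic neutrophil genes stood far above the other groups with both constructs, primary granule sums overlapped those of T618I alone, and library A was highest of its group in the 3 neutrophil sums; each sum is led by its most abundant members.

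Genes of stem and progenitor cells fell in 13 of 24 cases and rose in 5, with a median of -0.36. Kit (chromosome 5, 75574987 to 75656722), the receptor for stem cell factor, went from 326, 350 and 302 to 75.9, 89.8 and 106 CPM (-1.85 ± 0.104), and the lipid transporter Spns2 from 95.9, 83.6 and 77.0 to 21.7, 27.2 and 26.2 CPM (-1.77 ± 0.133). Cd34 fell by 0.87 ± 0.145. Among the 5 members that rose, Ly6a (Sca-1) went from under 1 CPM to 32.6, 33.9 and 34.0 CPM. Gata2, a factor of stem cells and mast cells, went from 72.2, 63.6 and 63.1 to 228, 219 and 225 CPM (1.76 ± 0.135).

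Markers of other blood lineages were read as a check on which cells the libraries could hold. Of 29 mast cell and basophil genes 25 rose and 1, Kit, fell, with a median of 2.94. Their summed level was 4050 to 4550 CPM with neither construct and 6770 to 7390 CPM with both. Mcpt8, a basophil protease, went from 104, 80.0 and 97.6 to 802, 711 and 789 CPM (3.03 ± 0.183), and Cyp11a1, a steroid enzyme made by mast cells, rose by 3.63 ± 0.282. Cpa3, the mast cell carboxypeptidase, was at 620, 518 and 576 against 475, 615 and 677 CPM and did not pass. The Mcpt genes are near-identical in part, so single members are uncertain.

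Of 20 tested monocyte and macrophage genes 15 rose and 1 fell, with a median of 1.63 and a summed level of 693 to 793 CPM with neither construct and 1530 to 2270 CPM with both. Lgals3, galectin 3, went from 3.62, 1.59 and 5.47 to 249, 218 and 152 CPM (5.86 ± 0.266). Csf1r, the receptor that monocytes need, rose from 9.26, 9.44 and 9.39 to 109, 86.9 and 66.7 CPM (3.22 ± 0.195). Mpeg1, a pore-forming protein of phagocytes, rose by 2.70 ± 0.209. Tissue macrophage markers stayed near 0: C1qa had 2 counts with neither construct and 0 with both, Mertk 0 and 1, and Timd4 0 in both groups.

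Among genes of megakaryocytes and red cells 7 of 17 rose and 3 fell, with a median of 0.57, or 0.46 with Car1, which was at 0 in Empty/Empty, set to its floor. Gata1, the factor of the erythroid, megakaryocyte and mast cell lineages, rose from 5.44, 4.67 and 4.75 to 22.1, 24.6 and 26.2 CPM (2.29 ± 0.223), while Tfrc, the transferrin receptor, fell by 0.93 ± 0.111. The globin genes Hba-a1, Hba-a2, Hbb-bs and Hbb-bt had 0 counts in all 6 libraries. Summed levels of the list overlapped, at 1190 to 1280 CPM with neither construct and 1230 to 1260 CPM with both. Of 15 dendritic cell and antigen presentation genes 3 rose and 6 fell: B2m, the light chain of MHC class I, fell from 997, 876 and 830 to 694, 770 and 635 CPM (-0.37 ± 0.0894), and the peptide transporter Tap1 by 0.39 ± 0.0801. Both calls were lost wherever the disputed label was placed, while the log2 fold changes lay at -0.42 to -0.28 for B2m and -0.39 to -0.38 for Tap1. With Empty/Empty A, B or C counted as T618I alone, B2m had an edgeR quasi-likelihood adjusted p of 0.503, 0.275 and 0.193. Tap1 had 0.188, 0.195 and 0.205 in the same test, and 1 member of the list fell instead of 6. Of 7 eosinophil genes 2 rose (28.6%, near the 27.5% of all genes), among them Alox15, and 1 fell. Prg2, the major basic protein, was at 158, 97.3 and 134 against 59.1, 107 and 195 CPM and did not pass. Without the letter C libraries Prg2 passed as lower (edgeR quasi-likelihood adjusted p = 0.0398). Lymphoid genes were tested in 7 cases, with Il7r and Gzmb higher and Igll1, Cd79b and Ebf1 lower (Ebf1 not with Empty/Empty B left out, edgeR quasi-likelihood adjusted p = 0.0608), and Cd3e, Ms4a1 and Pax5 were at 0 counts in both groups. Of 5 tested stromal and endothelial genes Acta2 and Tagln rose and Pecam1 fell, the last not without Asxl1-MT2/T618I library A (edgeR quasi-likelihood adjusted p = 0.0609). The part that other cell types had in the neutrophil genes was not tested.

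**Figure D4:**
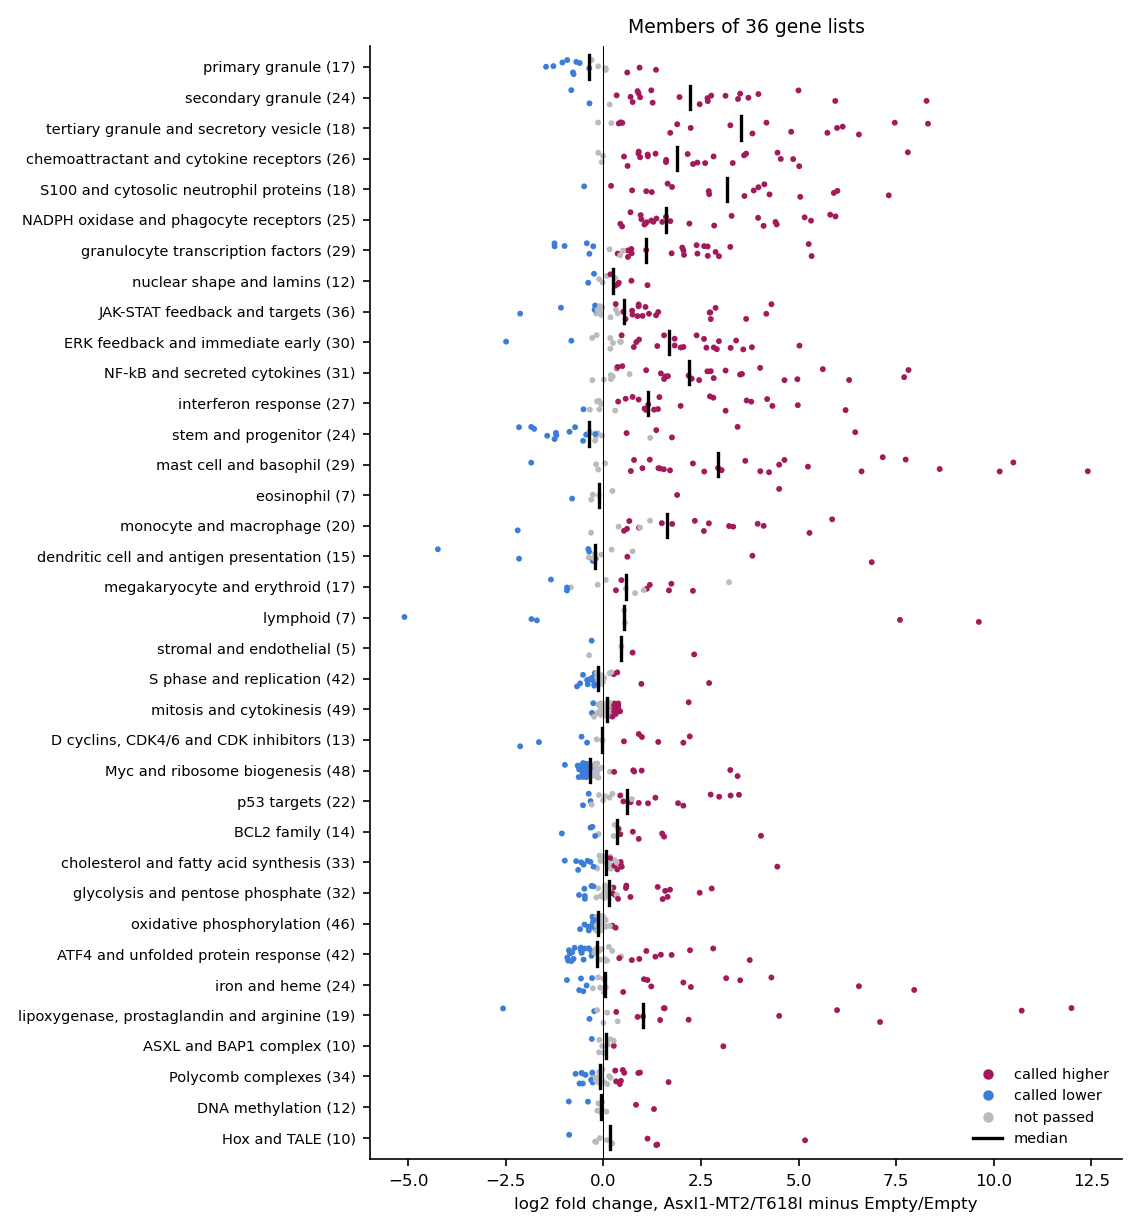
Log2 fold change, Asxl1-MT2/T618I minus Empty/Empty, of every tested member of the 36 gene lists, coloured by call, with a bar for the list's median and the number tested in brackets. Neutrophil, signalling, cytokine and mast cell lists lie to the right of 0, and primary granule, progenitor, and Myc and ribosome biogenesis lists lie to its left.

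Of 48 genes of Myc and ribosome biogenesis 28 fell and 6 rose, with a median of -0.33. Myc itself went from 400, 408 and 340 to 166, 206 and 208 CPM (-0.99 ± 0.115). Among the 6 that rose were Mxd1, Mxd3 and Mxi1, which encode antagonists of Myc. Nucleolin (Ncl), an abundant protein of the nucleolus, was at 1341, 1354 and 1695 against 1057, 1300 and 1415 CPM and did not pass. Ncl passed as lower under library totals alone and with a letter block (edgeR quasi-likelihood adjusted p = 0.0293 and 0.0137). Across the scalings tried 28 to 39 members fell.

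Most division genes did not pass. Of 42 S phase and replication genes 13 fell (31.0%) and 4 rose, with 29 falls under library totals alone and 8 without Asxl1-MT2/T618I library B. Pola1, a subunit of DNA polymerase alpha, fell from 80.3, 85.0 and 93.5 to 55.1, 50.6 and 65.4 CPM (-0.60 ± 0.117), while E2f2, a driver of S phase genes, rose from 44.7, 48.0 and 41.1 to 326, 288 and 261 CPM (2.71 ± 0.121). Of 49 mitosis genes 13 rose (26.5%, near the 27.5% of all genes) and 2 fell (4.08%, against 23.1%), with a median of 0.10. Under library totals alone 7 rose and 5 fell and the median was -0.02. Cdc25b, a phosphatase that admits cells to mitosis, rose by 2.18 ± 0.0998, and Mki67, the proliferation marker, was at 605, 773 and 805 against 966, 812 and 954 CPM and did not pass (edgeR quasi-likelihood adjusted p = 0.0691). It lay near the threshold: it passed with Empty/Empty C, Empty/T618I C or all letter C libraries left out (0.0476, 0.0152 and 0.00988), without a filter on low counts (0.0283), with only the groups compared (0.0341) and with a letter block (0.0191). D cyclins parted: Ccnd2 and Ccnd1 fell by 2.13 and 1.65, and Ccnd3 rose from 351, 294 and 268 to 888, 811 and 721 CPM (1.41 ± 0.101). The CDK inhibitors Cdkn2d and Cdkn1a rose by 2.21 ± 0.107 and 2.05 ± 0.111.

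Of 22 p53 target genes 12 rose and 3 fell, with a median of 0.61. Trp53inp1 went from 18.1, 17.2 and 18.4 to 148, 118 and 94.8 CPM (2.75 ± 0.153), and the death receptor Fas from 1.01, 1.19 and 1.96 to 20.7, 14.7 and 11.1 CPM (3.47 ± 0.274). Trp53 itself was lower (-0.37 ± 0.118), with groups that overlapped, and the call was lost when Empty/Empty A, Empty/Empty B or Asxl1-MT2/T618I A was left out (edgeR quasi-likelihood adjusted p = 0.0844, 0.0631 and 0.0737). In the BCL2 family 7 of 14 genes rose, both protective and lethal: Mcl1, which keeps granulocytes alive, went from 184, 192 and 214 to 682, 576 and 475 CPM (1.56 ± 0.109), and the death-promoting Bmf and Bcl2l11 rose by 4.04 ± 0.284 and 1.51 ± 0.114. Bcl2 fell from 37.8, 32.8 and 38.7 to 14.1, 18.6 and 19.5 CPM (-1.06 ± 0.134). Falls in this family numbered 4, or 2 without Asxl1-MT2/T618I library B.

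Of 42 ATF4 and unfolded protein response genes 18 fell (42.9%) and 10 rose (23.8%), against 23.1% and 27.5% of all genes. Hspa5 (BiP) went from 1899, 1964 and 2261 to 1042, 1115 and 1239 CPM (-0.85 ± 0.0989), Hsp90b1 (GRP94) fell by 0.86 ± 0.118 and Calr by 0.88 ± 0.098. Members that rose included Nupr1 by 3.75, Trib3 by 2.81, Slc7a11 (the cystine transporter) by 2.22 and Cebpb. Of 32 genes of glycolysis and the pentose phosphate route 14 rose and 6 fell, or 3 without Empty/Empty library C. Among these, the glucose transporter Slc2a3 went from 34.7, 27.3 and 28.6 to 198, 156 and 148 CPM (2.47 ± 0.132), and Pygl, which releases glucose from glycogen, from 195, 207 and 259 to 831, 653 and 581 CPM (1.65 ± 0.137).

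Of 46 oxidative phosphorylation genes 13 fell (28.3%, near the 23.1% of all genes) and 2 rose, with a median of -0.13; 25 fell under library totals alone. Ndufa4, a small subunit of the respiratory chain, fell from 159, 149 and 169 to 92.7, 111 and 112 CPM (-0.60 ± 0.0946). Of 33 genes of cholesterol and fatty acid synthesis 7 rose (21.2%) and 8 fell (24.2%), near the 27.5% and 23.1% of all genes. Abca1, the cholesterol exporter, rose by 4.46 ± 0.363, and the desaturase Scd2 fell by 0.70 ± 0.121. Of 24 iron and heme genes 11 rose and 6 fell, with a median of 0.044. The share of this list that fell lay near the 23.1% of all genes. Hmox1, heme oxygenase 1, went from 9.56, 7.36 and 9.08 to 222, 155 and 137 CPM (4.30 ± 0.223). The ferritin genes Ftl1 and Fth1 rose by 1.13 ± 0.144 and 2.05 ± 0.121, the metalloreductase Steap4 by 7.96 ± 0.341, and Tfrc fell as above. Of 19 genes of lipoxygenases, prostaglandins and arginine 12 rose and 3 fell. Besides Nos2 and Alox8, Arg2 (arginase 2) rose by 5.99 ± 0.383, and Alox5 and Alox5ap, the enzyme and helper that start leukotriene synthesis, by 1.45 ± 0.16 and 1.57 ± 0.123. Lta4h, which makes leukotriene B4, fell by 0.36 ± 0.0739, a call lost wherever the disputed label was placed (edgeR quasi-likelihood adjusted p = 0.266, 0.413 and 0.37). Its log2 fold change lay at -0.39 to -0.33 in these placements.

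Chromatin genes that did not pass numbered 7 of 10 in the ASXL and BAP1 list and 16 of 34 in the Polycomb list. They numbered 8 of 12 for DNA methylation and 5 of 10 for Hox and TALE. Of all genes tested 50.6% were called, so about as many passed as did not. The Polycomb and the Hox and TALE counts lay near that share. Of 10 genes of the ASXL and BAP1 complex only Asxl1 and Ogt rose and Foxk2 fell. Asxl1 is the gene that was introduced, so its rise is not read as a response of the complex. The call of Ogt was lost with either library A of these groups left out (edgeR quasi-likelihood adjusted p = 0.0584 and 0.0925) and under library totals alone (0.148). Bap1 was at 92.1, 89.0 and 101 against 89.0, 88.9 and 85.4 CPM and did not pass. Under library totals alone Bap1 passed as lower (edgeR quasi-likelihood adjusted p = 0.0152). Of 34 Polycomb genes 9 rose and 9 fell (26.5% each, near the 27.5% and 23.1% of all genes), with a median of -0.08. Under library totals alone 5 rose and 15 fell. Ezh2, the methyltransferase, lay between 108 and 119 CPM in all 6 libraries. Phf1, an accessory subunit, rose from 14.4, 12.7 and 7.84 to 44.0, 40.9 and 26.6 CPM (1.67 ± 0.218). Among 12 DNA methylation genes Dnmt3a and Dnmt3b fell by 0.40 ± 0.0869 and 0.89 ± 0.18, and Dnmt3l and Mbd2 rose by 1.30 ± 0.212 and 0.84 ± 0.0872. In the Hox and TALE list 4 of 10 tested genes rose and 1 fell; with the stricter filter on low counts 1 rose. Hoxa9, a factor linked to leukemia, lost its call with Empty/Empty B or Asxl1-MT2/T618I C left out (edgeR quasi-likelihood adjusted p = 0.0535 and 0.168).

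The same libraries were then set against each single construct, in the same fit, to see which of these changes went with either construct alone. Against Empty/T618I 5082 genes were called (43.9%), 2939 higher (25.4%) and 2143 lower (18.5%). Against Asxl1-MT2/Empty 5761 genes were called (49.8%). Against Empty/Empty itself, T618I alone had 2038 genes higher and 1840 lower, and Asxl1-MT2 alone 143 higher and 72 lower. These comparisons share libraries, so their values are set side by side and not counted as independent.

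Late neutrophil genes were higher with both constructs than with T618I alone. All 24 secondary granule genes were, with a median log2 difference of 1.88, as were 14 of 18 tertiary granule genes (1.97), 16 of 18 cytosolic neutrophil genes (2.03) and 23 of 25 oxidase and phagocyte genes (1.13). Mmp8 was at 2.18 CPM on average with Asxl1-MT2 alone, 201 with T618I alone and 1919 with both. Itgam was at 322, 188 and 1064 CPM in these groups against 226 CPM with neither, and Ngp at 886, 392 and 3799 against 595 CPM. For Ngp, Itgam and Camp the mean level with T618I alone was below that with neither, while the level with both was the highest of the 4 groups. Of 17 primary granule genes 6 were higher than with T618I alone and none lower, with a median of 0.03, and Mpo differed by -0.16 with an edgeR quasi-likelihood adjusted p of 0.29.

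Of 36 JAK-STAT genes 18 were higher and 7 lower than with T618I alone, against 25.4% and 18.5% of all genes. The number lower thus lay near the share of all genes. Socs3 averaged 165 CPM with T618I alone and 229 with both (log2 difference 0.48; edgeR quasi-likelihood adjusted p = 0.00072). Csf2rb averaged 2890 and 2627 CPM and did not differ past the threshold (-0.14, adjusted p = 0.16 in the same test). Csf2rb2, Egr1 and Socs1 were lower with both than with T618I alone, by 0.42, 0.75 and 1.12, though all were far above Empty/Empty.

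Other lists lay on different sides of the reference groups. Mast cell and basophil genes, 25 of 29 higher than with neither, were higher than with T618I alone in 3 cases and lower in 12. Gata2 averaged 66.3 CPM with neither, 408 with T618I alone, 40.8 with Asxl1-MT2 alone and 224 with both. Of 17 megakaryocyte and erythroid genes 10 were lower than with T618I alone, Gata1 among them (47.4 against 24.3 CPM). Antigen presentation genes ran the other way: 12 of 15 were higher than with T618I alone and none lower. B2m averaged 901 CPM with neither, 427 with T618I alone and 700 with both, and H2-D1, an MHC class I heavy chain, 268, 139 and 311 CPM. Genes of Myc and ribosome biogenesis were lower than with T618I alone in 41 of 48 cases (median -0.58). Thbs1, thrombospondin 1, averaged 1830 CPM with neither, 189 with T618I alone, 3100 with Asxl1-MT2 alone and 1031 with both. Its fall relative to cells with neither construct was lost when Empty/Empty library C was left out, and likewise with Asxl1-MT2/T618I library A left out (edgeR quasi-likelihood adjusted p = 0.0645 and 0.0524).

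**Figure D5:**
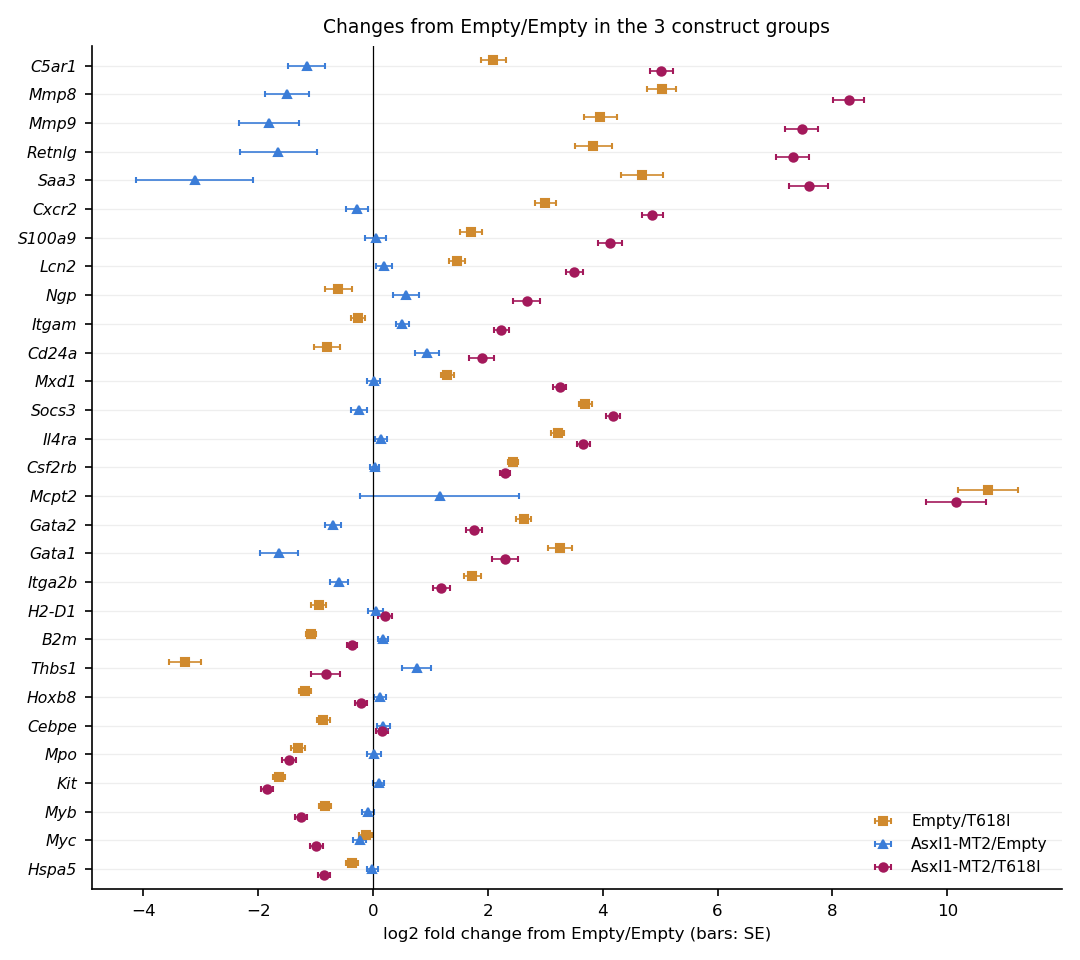
Log2 fold change from Empty/Empty, with SE, of 29 genes in Empty/T618I (squares), Asxl1-MT2/Empty (triangles) and Asxl1-MT2/T618I (circles), which share the Empty/Empty libraries. Neutrophil genes at the top reach furthest with both constructs, Csf2rb, Mcpt2, Mpo and Kit lie close to T618I alone, and H2-D1, B2m, Hoxb8 and Cebpe lie nearer to 0 than with T618I alone.

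A last test asked whether the change with both constructs equals the sum, on the log2 scale, of the changes with each alone. For 2273 genes (19.6%) it did not, with 1635 (14.1%) above the sum and 638 (5.51%) below it. Secondary granule genes were above the sum in 21 of 24 cases with a median excess of 1.65, tertiary granule genes in 11 of 18 (1.77), monocyte and macrophage genes in 14 of 20 (1.98), and none of these lists had a member below it. Mmp8 exceeded the sum by 4.75 and Mmp9 by 5.32 on the log2 scale (edgeR quasi-likelihood adjusted p = 3.5e-06 and 1e-05). Mast cell and basophil genes were above the sum in 1 of 29 cases, and Csf2rb, Ifitm1, Kit and Mpo differed from it by less than 0.32 without passing. Of the Myc and ribosome biogenesis genes 26 of 48 were below the sum.

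Some genes of low level stood beyond both single constructs. Mmp12, the macrophage elastase, reached 1.59, 6.16 and 5.89 CPM from at most 0.516 CPM with neither. Col5a1, a fibrillar collagen chain, went from 0.201, 0.895 and 0.103 to 44.6, 31.5 and 24.1 CPM, against a mean of 2.17 CPM with T618I alone. Below both single constructs lay Epha7, at 2.65, 3.45 and 2.89 CPM against means of 7.84 with T618I alone and 13.3 with Asxl1-MT2 alone, and Itga9, an integrin chain, at 0, 0.313 and 0.516 against 1.42 and 1.92 CPM. Cpne5, the last of the genes below both, was not called against cells with neither construct once Empty/Empty B, Asxl1-MT2/T618I B or Asxl1-MT2/T618I C was left out (edgeR quasi-likelihood adjusted p = 0.124, 0.0502 and 0.105).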

How the data were processed

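RNA of 12 HoxB8 libraries was measured as raw counts per gene symbol, which the authors deposited in 1 table. The submitters' processing notes name mm10, STAR, Trimmomatic and DESeq2 and say nothing of versions or of what each did; counting tool, annotation and strand setting are not given in the sources used here. Near-identical, overlapping and antisense genes are therefore uncertain. Groups came from the titles and column names.

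Counts were filtered with filterByExpr and scaled by TMM (factors 0.919 to 1.03). One mean per group was fitted to all 12 libraries with edgeR 4.0.16 in R 4.3.3 (quasi-likelihood, Benjamini-Hochberg), and 6 contrasts were tested. In simulated counts over 11055 genes, 67 genes were changed 1.5-fold, 67 were changed 2-fold and 66 were changed 4-fold. The comparison recovered 80.6% of the 1.5-fold, 98.5% of the 2-fold and 100% of the 4-fold changes and called 12 unchanged genes. In the data 50.6% of genes were called, far more than were changed in the simulation. The simulation therefore cannot give the rate of missed or false calls under so wide a change. Libraries of a group differed beyond counting noise (chi-square per degree of freedom 3.28 to 13.9), so none was a copy.

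The comparison, the 36 gene lists and the rule for named genes were chosen with earlier results of these data known. The rule names construct genes, the 12 largest changes each way past 5 CPM without overlap, the 10 largest gains and losses of CPM, up to 6 members per list, genes beyond both single constructs, the 5 largest departures from the sum each way (5 CPM or more), and genes with a printed promoter; other named members were chosen after their values were seen. Some genes that the rule names are not reported here. Alternatives covered DESeq2 1.42.0, other scalings and filters, each library left out, a letter block, the letter C libraries left out, and the disputed label.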

Additional observations from a re-analysis of the deposited data

Results flagged for a closer look

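The change with both constructs differed from the sum of the changes with each construct alone in 2273 genes by the test of that difference, and genes with the largest departures are given here as values. Above the sum on the log2 scale were Fpr1 by 7.88, Ceacam10 by 6.67, Saa3 by 6.0 and Prr33 by 5.63. Fpr1 had 0 counts in Asxl1-MT2/Empty, so its value has no fixed size, and Ceacam10 and Prr33 had 3 and 1 counts there. Saa3, an acute phase protein, was at 376, 277 and 228 CPM with both constructs and averaged 39.4 CPM with T618I alone. With Empty/Empty A, B or C counted as T618I alone, the calls of Fpr1 (edgeR quasi-likelihood adjusted p = 0.269, 0.258 and 0.218) and Saa3 (0.12, 0.128 and 0.286) were lost, and that of Prr33 in the first and second placement (0.187 and 0.202). The call of Prr33 did not pass in 8 of the 12 fits that left out 1 library.

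Below the sum were Col18a1 at -2.37, Scd1 at -2.14, Rcbtb1 at -2.12, Asb13 at -1.97 and Tmem9 at -1.93. Col18a1, a basement membrane collagen, averaged 20.6 CPM with T618I alone and 8.42 with Asxl1-MT2 alone and lay at 9.24, 9.71 and 8.47 CPM with both. Scd1, a fatty acid desaturase, averaged 59.7 CPM with T618I alone and lay at 13.3, 16.6 and 13.2 CPM with both, inside the range of Empty/Empty save for 1 library. In the same 3 placements of the disputed label the calls of Col18a1 (0.138, 0.13 and 0.111), Scd1 (0.202, 0.308 and 0.1), Rcbtb1 (0.194, 0.0642 and 0.139) and Tmem9 (0.33, 0.435 and 0.575) were lost by edgeR's quasi-likelihood adjusted p, and that of Asb13 in the second alone (0.0886). Tmem9 did not pass without the letter C libraries (edgeR quasi-likelihood adjusted p = 0.0881).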

How the results depend on the processing

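No called gene that the text names reversed under the alternatives run. Leaving out 1 library gave 4919 to 6073 calls for both constructs against neither (2828 to 3297 higher, 2091 to 2819 lower), 4029 to 5408 against T618I alone, 4752 to 5963 against Asxl1-MT2 alone and 1646 to 2640 against the sum. DESeq2 called 5679 genes, and without the letter C libraries 6183 were called. With library totals alone 4051 genes were lower. Moving Empty/Empty A, B and C in turn to Empty/T618I left 1653, 1647 and 1771 genes lower and 711, 636 and 1488 different from the sum; the cause was not tested. Tested against a fold of 1.5, an alternative chosen after seeing the data, 1894 genes were called (1527 higher, 367 lower), 1135 against T618I alone, 1844 against Asxl1-MT2 alone and 464 against the sum, as a stricter test must. With the label so moved, the calls against neither construct of Camp, Cd79b, Dlg2, Ebf1, Fcnb, Hoxa9, Socs2 and Thbs1 were lost in all 3 placements. Column letters were not taken to pair the libraries: same-letter correlations were -0.0499, -0.0606 and 0.017 between the groups compared and -0.0606 to 0.22 over all 6 pairs of groups, with 7 of 18 over 0.1 and 10 of 18 libraries closest to their own letter. A replicate block by letter gave 6168 calls, and 2851 against the sum. A fit of only the groups compared was not possible for the sum, which needs all 4. Under library totals alone the medians of 4 lists changed sign: mitosis, cholesterol synthesis, iron and heme, and the ASXL and BAP1 complex.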
